A study of Ovis aries with 2 samples.

Results

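The genes described here are 10 genes of the Hippo pathway and the CCN protein family, chosen by name: CTGF, CYR61, NOV, YAP1, WWTR1, TEAD1, TEAD4, LATS1, LATS2 and ANKRD1. Of these, 9 were named in the deposited transcript table, each by 1 entry, among 15490 named genes and 22881 entries. No entry carried the name TEAD1, and it is not analysed here under that name. The genes were picked with earlier results of this supplemented against restricted comparison in view, so their values are a description and carry no test.

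RNA was sequenced from granulosa cells of multiparous Hu sheep ewes aged 3 to 4 years, given different feed allowances in the luteal phase. In the supplemented group 8 ewes were offered 1560 g of feed each per day, 1.5 times the maintenance diet. In the restricted group 8 ewes were offered 520 g each per day, 0.5 times that diet. Granulosa cells were scraped from the wall of visible follicles above 2.5 mm in diameter, and the labels do not say how many ewes gave RNA to each library. Each group is represented by 1 library, of 9426679 reads for the supplemented and 11299773 reads for the restricted group, so the diets cannot be tested and the spread between animals is unknown.

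The Hippo pathway is a kinase cascade in which MST kinases and their adaptors activate LATS1 and LATS2, which phosphorylate the co-activators YAP1 and WWTR1 (also called TAZ) and keep them out of the nucleus. In the nucleus YAP1 and WWTR1 bind DNA through TEAD factors and drive target genes, among which CTGF, CYR61 and ANKRD1 are the most widely used readouts. The pathway is known in the ovary for a part in follicle growth. CCN proteins are secreted matricellular proteins that bind integrins and growth factors, and CTGF is known as a product of granulosa cells in growing follicles. The roles given for genes are those known mainly from human and mouse.

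Levels are given in FPKM, the authors' unit, which scales reads to transcript length and library size and allows genes to be compared per length. Differences are expressed as log2((supplemented FPKM + 1) / (restricted FPKM + 1)), a scale that shrinks those of low genes. A gene was called higher or lower by size at or beyond 1 or -1, among genes that averaged 1 FPKM or more, which are called measured. Each fold value compares scaled reads and has an exact Clopper-Pearson 95% interval, which covers counting error only. All 9 genes passed the filter, though TEAD4 and LATS1 did so narrowly, at mean levels of 1.32 and 1.14 FPKM. In the supplemented library 3 of them were lower by size (CTGF, CYR61 and ANKRD1) and 0 higher, against 2.85% and 5.87% of the 11927 measured genes. Those shares are given as background only, since the genes were chosen on this contrast. NOV and TEAD4, at 0.97 and -0.84, lay just short of the size limit, and ANKRD1, at -1.57, was the called gene nearest to it. In the same comparison the granulosa markers had a median of -0.87 and the leukocyte markers of 2.02. The part of the cell makeup in the values that follow was not tested, and in bulk RNA fewer cells of a type and less RNA per cell cannot be told apart.

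**Figure D1:**
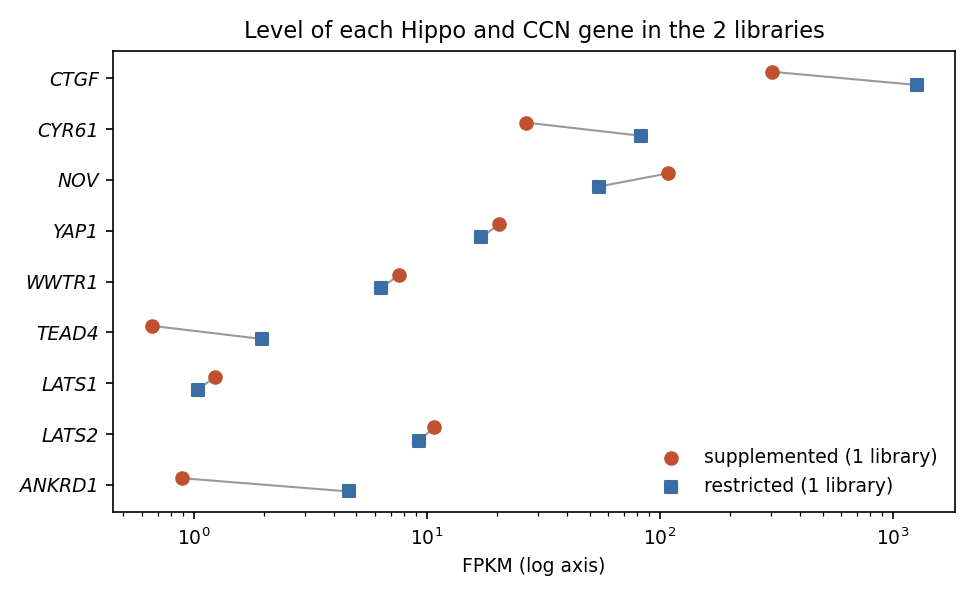
Level of each of the 9 genes in FPKM (log axis), with circles for the supplemented library and squares for the restricted library, 1 library each. CTGF stood at 303 FPKM in the supplemented and 1266 FPKM in the restricted library, while NOV lay to the right in the supplemented library.

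The CCN genes lay on different sides. CTGF, a matricellular protein that binds growth factors and matrix, stood at 303 FPKM in the supplemented library, against 1266 FPKM in the restricted library, on 3894 against 16860 reads. It was 4.18-fold lower in the supplemented library (interval 4.04 to 4.33), and its log2 ratio of -2.06 was the 38th lowest of the measured genes. By abundance CTGF ranked 236 among measured genes in the supplemented library and ranked 61 in the restricted library. Its share of total reads was 0.0413% with supplementation, against 0.149% with restriction. The CTGF entry spans chromosome 8 from 57077576 to 57108513 of the sheep build Oar_v3.1.

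CYR61, a CCN protein that binds integrins and promotes cell adhesion, stood at 26.6 FPKM in the supplemented library, against 83.1 FPKM in the restricted library, on 645 against 2084 reads. It was 3.12-fold lower in the supplemented library (2.86 to 3.41), with a log2 ratio of -1.61. Its entry spans chromosome 1 from 61925384 to 62007353. CTGF and CYR61 thus lay on the same side, but in neither library were they at like levels: in FPKM, CTGF was 11.4 times CYR61 in the supplemented library and 15.2 times CYR61 in the restricted library.

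NOV, a CCN protein known mainly for restraining cell growth, lay on the other side. It stood at 109 FPKM in the supplemented library, against 54.8 FPKM in the restricted library, on 2018 against 1054 reads. The read ratio was 1.98 (1.84 to 2.14). Its log2 ratio of 0.97 was short of the size limit as deposited, and reached 1.18 when scaled by total reads. The NOV entry lies on chromosome 9 from 57701139 to 57708260.

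The makeup of the CCN transcripts differed between the libraries. The 3 genes together held 438 FPKM in the supplemented library, against 1404 FPKM in the restricted library. CTGF made up 69.1% of the supplemented sum and 90.2% of the restricted sum. NOV made up 24.8% of the supplemented sum and 3.90% of the restricted sum. CYR61 held a like share in both, 6.08% of the supplemented sum and 5.92% of the restricted sum. These shares do not depend on how the libraries are scaled against each other. The remaining CCN genes were close to silent in both libraries: WISP1 had 1 supplemented and 1 restricted read, WISP3 had 2 supplemented and 5 restricted reads, and WISP2 had 0 reads in both.

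**Figure D2:**
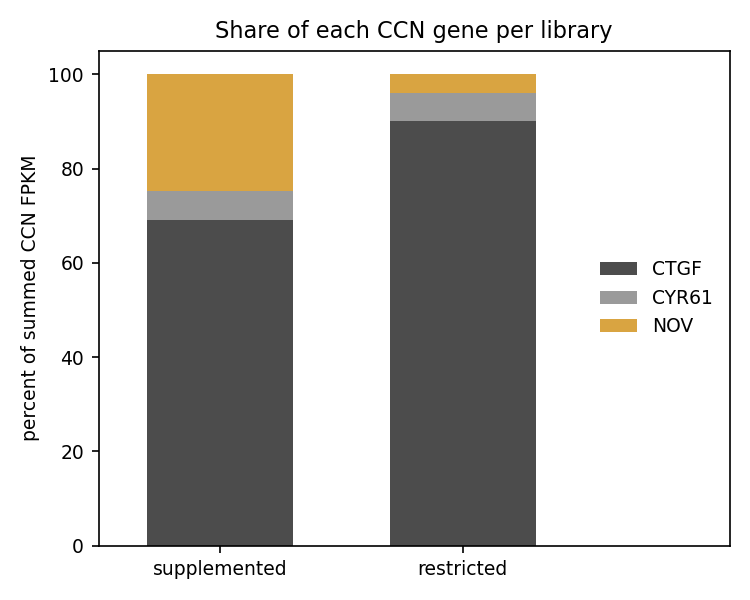
Share of the summed FPKM of CTGF, CYR61 and NOV held by each gene, in percent, in the supplemented (left bar) and restricted (right bar) library, 1 library each. NOV held 24.8% of the supplemented bar and 3.90% of the restricted bar.

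ANKRD1, a nuclear ankyrin-repeat protein best known from heart muscle and a direct target of YAP1, stood at 0.896 FPKM in the supplemented library, against 4.63 FPKM in the restricted library. These levels rest on 23 against 123 reads, and the gene was 5.17-fold lower in the supplemented library (3.29 to 8.45). Its entry spans chromosome 22 from 12267525 to 12303795. With a pseudocount of 5 its log2 ratio was -0.71, short of the size limit. Of 13 striated muscle markers with an entry, 8 were measured, and 4 of those were higher and 0 lower by size in the supplemented library (median 1.39). MB, the oxygen-binding myoglobin of muscle, stood at 9.77 FPKM in the supplemented library, against 0.663 FPKM in the restricted library. CKM, the muscle creatine kinase, stood at 21.1 FPKM in the supplemented library, against 35.7 FPKM in the restricted library, and TNNT1, a slow muscle troponin, at 16.4 against 13.9 FPKM. The summed level of the 13 markers was 78.9 FPKM in the supplemented and 59.7 FPKM in the restricted library, so ANKRD1 was lower where most of these markers were higher.

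The authors' deposited table has 2 of the 9 genes down at its threshold (q under 0.05), CTGF (q = 0.00531) and CYR61 (q = 0.0237), against 0.131% of its entries. It has 0 of the 9 up, against 0.612% of its entries. The same authors' deposited table gives q = 0.167 for ANKRD1, q = 0.537 for NOV and q = 0.870 for TEAD4. Such q-values set 1 library against 1 library and say nothing of the spread between ewes.

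The co-activators had read ratios close to 1 as deposited. Scaled by total reads, the log2 ratio was 0.44 for YAP1 and 0.41 for WWTR1, beside a median of 0.11 over all measured genes. YAP1, which binds TEAD factors to activate transcription, stood at 20.5 FPKM in the supplemented library, against 17.2 FPKM in the restricted library, on 379 against 329 reads. The read ratio was 1.19 (1.03 to 1.39), and the entry lies on chromosome 15 from 6073879 to 6208158. WWTR1, its paralogue, stood at 7.61 FPKM in the supplemented library, against 6.37 FPKM in the restricted library, on 149 against 129 reads. The WWTR1 read ratio was 1.20 with an interval that spans 1 (0.938 to 1.53), so the reads available could not show a difference. Its entry lies on chromosome 1 from 236522086 to 236665858. In FPKM, YAP1 was 2.69 times WWTR1 in the supplemented library and 2.70 times WWTR1 in the restricted library.

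The LATS kinases, which phosphorylate and restrain YAP1 and WWTR1, also had read ratios close to 1 as deposited. Scaled by total reads, the log2 ratio was 0.40 for LATS2 and 0.25 for LATS1. LATS2 stood at 10.8 FPKM in the supplemented library, against 9.25 FPKM in the restricted library, on 502 against 445 reads, a ratio of 1.17 (1.03 to 1.33). LATS1 stood at 1.24 FPKM in the supplemented library, against 1.04 FPKM in the restricted library, on 519 against 450 reads, a ratio of 1.19 (1.05 to 1.36). The entries lie on chromosome 10 from 35862795 to 35885746 for LATS2 and on chromosome 8 from 73715509 to 73751751 for LATS1.

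The low FPKM of LATS1 does not stand for few reads, since both kinases had nearly the same number. In the restricted library 1 FPKM corresponded to 425 scaled reads for LATS1 and to 47.3 for LATS2, so the length behind the LATS1 value was 9.00 times that behind LATS2. LATS1 lay at percentile 99.1 of 10551 entries in reads per FPKM, where the median was 30.2. The FPKM levels of the kinases should therefore not be ranked against each other, nor their log2 ratios of FPKM + 1. Each kinase's read ratio between the libraries uses the same length on both sides. YAP1, WWTR1, LATS1 and LATS2 thus had read ratios between 1.17 and 1.20, and the interval of each overlaps those of the others.

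**Figure D3:**
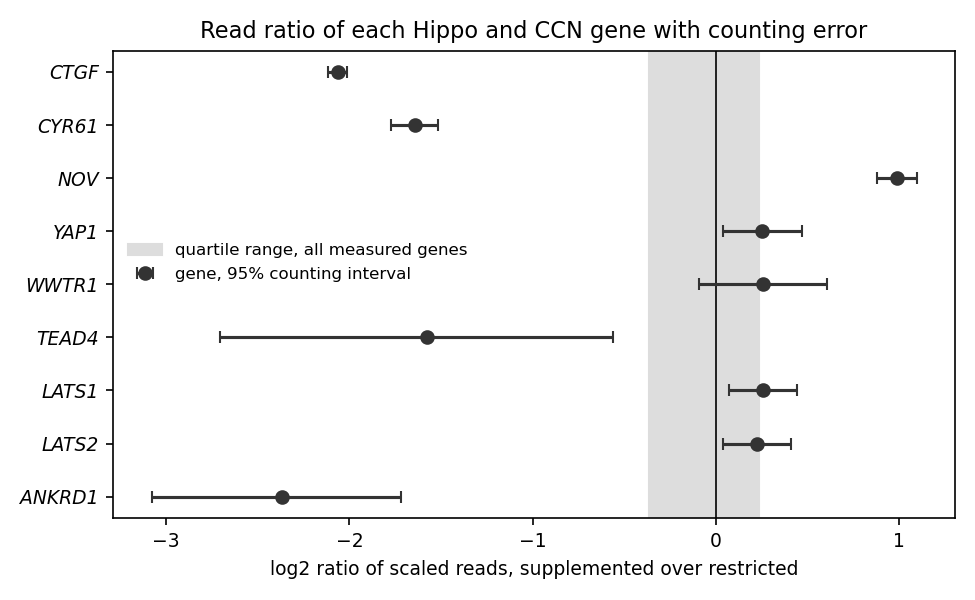
Log2 ratio of scaled reads, supplemented over restricted, for each of the 9 genes (points) with its 95% counting interval (bars). The shaded band is the quartile range over 11749 measured genes with reads in both libraries, from -0.37 to 0.24. CTGF, CYR61, TEAD4 and ANKRD1 lie left of the band, NOV lies right of it, and the co-activators and kinases sit at its right edge.

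By counting interval, 4 of the 9 genes lay wholly below 1 in the supplemented library (CTGF, CYR61, TEAD4 and ANKRD1), against 35.7% of the measured genes. A further 4 lay wholly above 1 (NOV, YAP1, LATS1 and LATS2), against 20.4% of the measured genes. The median log2 ratio of the 9 genes was 0.14, which is the value of LATS1, beside -0.08 over all measured genes. It was 0.22 with a pseudocount of 0.1 and 0.05 with a pseudocount of 5, beside -0.09 and -0.05.

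TEAD factors carry YAP1 and WWTR1 to DNA. TEAD4 was the scarcest of the 9 genes in the supplemented library, at 0.661 FPKM, against 1.97 FPKM in the restricted library. It rests on 11 against 34 reads and was 2.99-fold lower (1.48 to 6.53), on chromosome 3 from 210770906 to 210801998. TEAD2 was the most abundant TEAD gene, summed over its 2 entries, at 53.5 FPKM in the supplemented library, against 68.5 FPKM in the restricted library (ratio 0.783, 0.729 to 0.842). TEAD3, over 2 entries, stood at 10.1 FPKM in the supplemented library, against 8.43 FPKM in the restricted library (ratio 1.20, 1.01 to 1.42). That sum includes an entry on chromosome 15 with the gene neighbours of TEAD1, described below, and no interval was computed without it. YAP1 was 31.0 times TEAD4 in the supplemented library and 8.70 times in the restricted library, in FPKM.

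The entries named TEAD3 lie on different chromosomes. The gene order around each was set against the RefSeq annotation of another assembly, ARS-UI_Ramb_v3.0, for names only, taking 10 named entries on each side and counting those within 30 genes of a TEAD gene in RefSeq. Around the entry on chromosome 20, all 18 of the neighbouring names that could be matched lie near TEAD3 in RefSeq. Alone, the chromosome 20 entry stood at 7.04 FPKM in the supplemented library, against 5.82 FPKM in the restricted library, on 200 against 171 reads. Around the entry on chromosome 15, from 39369981 to 39601837, 15 of 16 such names (ARNTL, COPB1 and DKK3 among them) lie near TEAD1 and 0 near TEAD3. That entry stood at 3.07 FPKM in the supplemented library, against 2.61 FPKM in the restricted library, on 100 against 88 reads. It is kept here under its deposited name and was not counted among the 9 genes. In the same comparison each of the 9 genes had most of its matched neighbours near its own RefSeq gene, from 11 of 14 for YAP1 to 17 of 17 for NOV and TEAD4.

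The rest of the pathway was read from 6 lists that hold 80 genes apart from the 10, of which 72 have an entry and 59 were measured. Of these 59, 1 was lower and 0 were higher by size in the supplemented library, beside 2.85% and 5.87% of all measured genes, with a median of -0.10 beside -0.08. Among the 13 measured kinases and adaptors of the cascade the median was 0.00. STK3, an MST kinase, stood at 12.5 FPKM in the supplemented library, against 17.3 FPKM in the restricted library, and SAV1, its scaffold, at 9.48 against 12.5 FPKM. STK38L, a kinase related to LATS, stood at 4.91 FPKM in the supplemented and 7.35 FPKM in the restricted library. MAP4K1, a kinase of blood cells, had the highest log2 ratio, 0.95, at 2.38 FPKM in the supplemented library, against 0.748 FPKM in the restricted library.

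Among 24 measured junction, polarity and phosphatase regulators the median was -0.10, and 0 passed the size limit in either direction. PPP2CA, the catalytic subunit of protein phosphatase PP2A, stood at 103 FPKM in the supplemented library, against 156 FPKM in the restricted library. PPP2R1A, its scaffold subunit, summed over 4 entries, stood at 135 FPKM in the supplemented and 162 FPKM in the restricted library. The authors' log2 ratios of these entries differed in direction, at -0.41, 3.37, 3.22 and -0.27. CSNK1E, a casein kinase that marks phosphorylated YAP1 for breakdown, stood at 10.3 FPKM in the supplemented and 12.7 FPKM in the restricted library. AMOT, a junctional protein that holds YAP1 in the cytoplasm, stood at 1.59 FPKM in the supplemented library, against 0.889 FPKM in the restricted library.

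The 14-3-3 proteins retain phosphorylated YAP1 and WWTR1 in the cytoplasm. All 5 measured genes had a log2 ratio below 0 and a counting interval wholly below 1, though 0 passed the size limit (median -0.48, range -0.53 to -0.31). Beside this, 35.7% of all measured genes had such an interval, and their median was -0.08. YWHAQ stood at 331 FPKM in the supplemented library, against 462 FPKM in the restricted library. YWHAE, summed over 2 entries, stood at 225 against 326 FPKM. YWHAZ, summed over 3 entries, stood at 53.6 FPKM in the supplemented and 77.6 FPKM in the restricted library, and YWHAG at 59.4 against 81.1 FPKM. Centred on the granulosa markers, whose median was -0.87, all 5 log2 ratios would lie above 0. The median of all measured genes would then be 0.79. Centring adds the same amount to every gene, so the place of the 5 below that median cannot change. Of the VGLL genes, which compete with YAP1 for TEAD factors, VGLL3 stood at 19.7 FPKM in the supplemented and 19.6 FPKM in the restricted library, and VGLL4 at 26.1 against 24.9 FPKM.

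Other published YAP and TEAD targets lay on both sides of 0. Of 15 measured targets, 1 was lower and 0 were higher by size, with 8 above 0, 7 below 0 and a median of 0.08. F3, the tissue factor that starts blood clotting, was the lower one, at 4.67 FPKM in the supplemented library, against 19.8 FPKM in the restricted library, on 74 against 325 reads (4.24-fold lower, 3.29 to 5.54). GADD45A, a growth arrest gene, stood at 147 FPKM in the supplemented library, against 275 FPKM in the restricted library, and AXL, a receptor tyrosine kinase, at 8.21 against 15.2 FPKM. IGFBP3, an IGF-binding protein, stood at 11.3 FPKM in the supplemented library, against 5.38 FPKM in the restricted library.

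**Figure D4:**
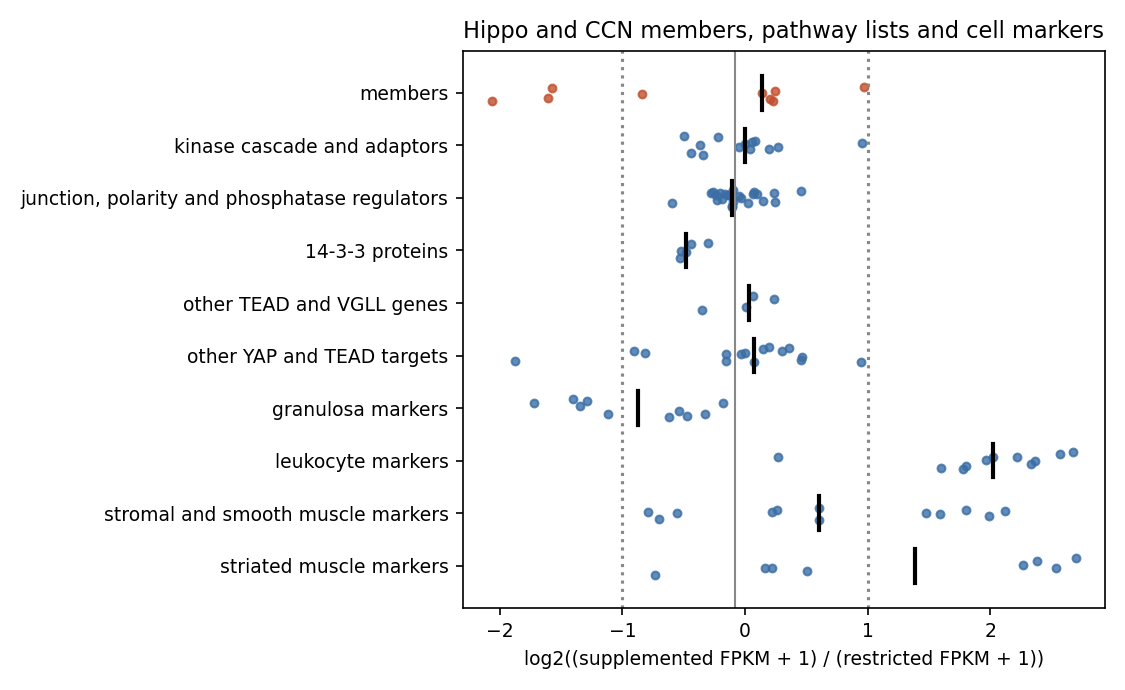
Log2((supplemented FPKM + 1) / (restricted FPKM + 1)) of each measured gene (points) in the 9 Hippo and CCN genes, the pathway lists and the cell markers, with the list median as a black bar. The dotted lines mark the size limit and the grey line the median of all measured genes, -0.08. The Hippo and CCN genes spread from -2.06 to 0.97, while the 14-3-3 points lie between -0.53 and -0.31.

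Markers of several cell types also differed between the libraries, in both directions. All 10 measured granulosa markers had a log2 ratio below 0, 5 of them lower by size (median -0.87), and their summed level was 10860 FPKM in the supplemented and 24711 FPKM in the restricted library. The inhibin alpha subunit gene INHA had 2910 FPKM in the supplemented library, against 7412 FPKM in the restricted library. The beta subunit gene INHBA had 2227 against 5880 FPKM, and the protease inhibitor gene SERPINE2 had 3412 against 7419 FPKM. Of 11 measured leukocyte markers, 10 were higher by size (median 2.02), with a summed level of 510 FPKM in the supplemented and 116 FPKM in the restricted library. Those with the highest levels were FCER1G at 161 against 39.0 FPKM, CD68 at 120 against 22.5 FPKM and LAPTM5 at 79.9 against 11.7 FPKM.

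Of 12 measured stromal and smooth muscle markers, 5 were higher and 0 lower by size (median 0.60), with a summed level of 1273 FPKM in the supplemented and 653 FPKM in the restricted library. ACTA2, smooth muscle actin, stood at 328 FPKM in the supplemented library, against 117 FPKM in the restricted library, TAGLN at 207 against 136 FPKM and DCN at 172 against 144 FPKM. LUM, PDGFRA and PDGFRB, named after their values were seen, went the other way with intervals wholly below 1, and LUM stood at 61.9 FPKM in the supplemented library, against 91.5 FPKM in the restricted library. Of 5 measured theca markers, 2 were higher and 0 lower by size, with INSL3 at 201 against 93.7 FPKM, LHCGR at 11.2 against 23.0 FPKM and CYP17A1 at 8.57 against 7.10 FPKM. Of 3 measured endothelial markers, 2 were higher by size, with PECAM1 at 10.4 against 1.79 FPKM, TIE1 at 2.73 against 1.34 FPKM and EMCN at 2.31 against 0.425 FPKM.

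With every value centred on the median of the granulosa markers, CTGF had a log2 ratio of -1.19, CYR61 of -0.74 and ANKRD1 of -0.70, so CTGF alone of the 9 genes was lower by size. In the same centring NOV, YAP1, WWTR1, LATS1 and LATS2 were higher by size, at 1.84, 1.11, 1.09, 1.00 and 1.07, and TEAD4 stood at 0.03. That centring raises every log2 ratio by the same amount, and the median of all measured genes became 0.79. Of all measured genes, 70.2% had a lower log2 ratio than LATS1, the lowest of those called higher here.

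The measured genes nearest to CTGF, by Euclidean distance in log2(FPKM + 1) over the 2 libraries, were GJA1 (0.57), JUNB (0.74), GSTA2 (0.76), NDUFA4 (0.85) and TIMP1 (0.87). GJA1, which encodes a connexin of gap junctions, had 431 FPKM in the supplemented library, against 1057 FPKM in the restricted library. TIMP1, an inhibitor of matrix proteases, stood at 505 FPKM in the supplemented and 1748 FPKM in the restricted library. With 2 libraries this likeness means only a like pair of levels.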

How the data were processed

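Per the submitters' processing notes, TopHat, Cuffdiff and the sheep build Oar_v3.1 were used, without tool versions. Neither annotation nor strand setting is stated. The count columns as deposited are a signal: read counts that the authors divided by 1 size factor per library. Dividing by the step of 1 read (1.02 supplemented, 0.983 restricted) returned whole numbers (tolerance 0.02 reads) for 98.5% of 17628 nonzero entries in the supplemented and 98.3% of 17364 in the restricted library. FPKM values are the authors' own, per the file headers, as are the p-values and q-values, which were not recomputed. Columns were assigned by the feed level in the sample descriptions.

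FPKM was summed per gene name. With 1 library per group no count model could be fitted, so 0 genes were called by one. Intervals, tested on simulated reads, cover counting error only. Coordinates are 1-based, and no locus of the 9 genes overlapped another entry (0 each). All 10 names matched RefSeq, CYR61 and NOV through their current symbols. The members, lists and naming rule were chosen with earlier results of these data known. Named list genes are those past the size limit and up to 4 per list with the largest absolute log2 ratio. All CCN genes and, per marker list, the 3 most abundant were also named. FOXL2, HSD17B1, MOB1A and MOB1B are among listed genes not analysed here. Python 3.11.15, numpy 2.4.6, pandas 2.3.3 and scipy 1.17.1 were used.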

Additional observations from a re-analysis of the deposited data

How the results depend on the processing

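CTGF, CYR61, ANKRD1 and NOV kept their direction under every alternative run. Their log2 ratios ran from -2.06 to -1.19, -1.64 to -0.74, -2.25 to -0.70 and 0.93 to 1.84. YAP1, WWTR1, LATS1 and LATS2 also stayed above 0. For genes with 1 entry, a pseudocount, a filter or the choice of entry cannot change the direction. Only the rescalings of the libraries could have done so, and every one of them raised the log2 ratios of the 9 genes. The genes above 0 could therefore not have changed direction in these runs. TEAD4 ran from -1.45 to 0.03 and changed sign when centred on the granulosa markers. Against 3 genes lower and 0 higher as reported, that centring gave 1 lower and 5 higher, and scaling by total reads, or centring on all measured genes, gave 1 higher (NOV). The median of the 9 genes was 0.25 by total reads and 1.00 centred on the granulosa markers, settings in which the median of all measured genes was 0.11 and 0.79. Among the pathway genes, 0 higher as reported became 2 with a pseudocount of 0.1, by total reads or centred on all measured genes (MAP4K1 and IGFBP3). Centred on the granulosa markers, which raises all measured genes alike, 14 were higher. The share of all measured genes past the size limit in these settings is not given here. F3 was the 1 lower gene throughout. A pseudocount of 0.1 added TEAD4 to the lower genes, and with a filter at 5 FPKM ANKRD1, TEAD4 and LATS1 were no longer measured. No paired analysis was possible because each group has 1 library, and no replicate could be left out. Depth limits TEAD4 (11 against 34 reads) and ANKRD1 (23 against 123 reads) most.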

Other observations

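The 2 entries named TEAD2 lie on chromosomes 14 and 3. Around the entry on chromosome 14, all 17 matched neighbouring names lie near TEAD2 in RefSeq, and it stood at 49.1 FPKM in the supplemented library, against 63.3 FPKM in the restricted library. Around the entry on chromosome 3, from 62437217 to 62536137, 0 of 12 matched names lie near any of TEAD1, TEAD2, TEAD3 or TEAD4, and it stood at 4.46 FPKM in the supplemented library, against 5.19 FPKM in the restricted library. Most of the summed TEAD2 level therefore comes from the entry on chromosome 14.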
